A study of Rattus norvegicus with 6 samples.

Results

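Collagens are the main structural proteins of the extracellular matrix, and their chains are encoded by a family of genes named Col, a collagen type number, a, and a chain number. All rows of the count table with a symbol of that form were taken, 44 genes of 37209 in the table. They were grouped by the structure their proteins build, as 11 fibrillar, 6 basement membrane and 9 FACIT genes (fibril-associated collagens with interrupted helices), and 18 genes of other types. The cells were wild-type primary mesenchymal stem cells from the bone marrow of rat femurs (BMSCs), grown in medium with 10% fetal bovine serum to 80% confluence. One group, of 3 libraries, received 3% cigarette smoke extract (CSE) for 6 h, and the control group, also of 3 libraries, received serum-free medium for 6 h. Nothing in the labels ties the libraries to separate cultures or animals. The p-values therefore describe the spread among these libraries, which may be technical.

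A collagen molecule is a rope of chains, either copies of a single chain or a fixed mixture of different chains, wound together along stretches of regularly spaced glycines. The chains are made in the endoplasmic reticulum, where prolines and lysines are hydroxylated and chaperones guard the helix, and after secretion the ends are trimmed and the molecules are crosslinked. Stromal cells of bone marrow, and the osteoblasts they give rise to, are known as strong producers of type I collagen, the organic framework of bone.

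Library totals ranged from 15958621 to 22589327 counts. Of the 44 collagen chain genes 29 passed a filter on low counts and were tested, 12 had some counts but were not tested, and 3 had no count. Stromal markers were present, with summed levels of 9547 to 9966 normalized counts per 1000000 counts (CPM, scaled by TMM factors) with CSE and 8545 to 8789 in the control. Of these 13 markers 4 rose, 6 fell and 3 did not pass an edgeR adjusted p under 0.05. The marker counts here are to be read beside 36.3% higher and 37.5% lower among all tested genes. Vim was the largest part of the stromal sum, at 6205 CPM with CSE against 5088 in the control. Cd44 (874 against 411 CPM), Thy1 (1427 against 1192) and, at a low level, Vcam1 (1.87 against 0.324) also rose. Cxcl12 (84.0 against 378), Prrx1 (138 against 265), Pdgfrb (207 against 378) and Pdgfra (66.4 against 130) fell. So did Lum (569 against 685) and, at a low level, Nt5e (3.98 against 7.41). Eng, Dcn and Lepr did not pass, and Lepr was at only 1.22 CPM with CSE against 1.02. Markers of other cells were also measured. The 13 macrophage markers summed to 1804 to 1865 CPM with CSE and 1628 to 1676 in the control, with 3 higher and 4 lower of 12 tested and Cd163 at 0. Most of this sum was Lyz2 (1414 CPM with CSE against 1175), which rose, as did Cd68 and Tyrobp. The 4 that fell were Csf1r (117 against 139), Ptprc (49.3 against 61.9), Mrc1 (24.6 against 29.9) and Cd14 (16.5 against 45.2). The 10 endothelial markers summed to 7.97 to 9.72 CPM with CSE and 17.0 to 19.6 in the control, with 3 lower of 4 tested. The tested ones held most of this sum. Erg was at 0.405 CPM with CSE against 5.34, Tek at 3.23 against 5.89 and Esam at 0.413 against 1.06, while Tie1, at 3.86 against 4.63, did not pass. Of the others Emcn and Cldn5 were at 0, and Pecam1 was at 0.102 CPM with CSE against 0.274, Cdh5 at 0.200 against 0.487, Kdr at 0.0158 against 0.0168 and Vwf at 0.376 against 0.190. The 8 markers of smooth muscle cells and pericytes summed to 9691 to 10751 CPM with CSE and 10967 to 12471 in the control, with 1 higher and 5 lower of 7 tested. Most of this sum was Tagln (6264 CPM with CSE against 5881), which did not pass, and Acta2 (3200 against 4912), which fell. Cnn1 rose (429 against 372). Myh11 (76.0 against 180), Cspg4 (106 against 192), Mcam (44.7 against 81.0) and Notch3 (23.9 against 28.1) fell. Rgs5, at 0.153 CPM with CSE against 0.226, was not tested. The 10 osteoblast and chondrocyte markers summed to 3978 to 4073 CPM with CSE and 4094 to 4194 in the control, with 3 higher and 5 lower of 9 tested. Most of this sum was Spp1 (2919 CPM with CSE against 2552) and Acan (991 against 1426). At lower levels Sp7 fell to 1.64 CPM from 28.5 and Sox9 to 4.26 from 40.9, while Runx2 rose to 53.8 from 41.4. The part of a changed mix of cells in the collagen results was not tested, and in these bulk libraries fewer cells of a type and less RNA per cell cannot be told apart.

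Collagen chain genes took a smaller share of the RNA counts with CSE. They held 6.44%, 6.33% and 6.54% of all counts in the CSE libraries and 7.59%, 7.94% and 7.88% in the control libraries, so the groups did not overlap. Most of this share was fibrillar, at 5.27% to 5.42% with CSE and 6.15% to 6.48% in the control. The FACIT share was 0.267% to 0.297% against 0.463% to 0.469%, and the share of the other types 0.586% to 0.616% against 0.781% to 0.798%. Basement membrane collagens held 0.192% to 0.204% with CSE and 0.192% to 0.199% in the control, and here the groups overlapped. These shares are to be read beside all tested genes. With libraries scaled by total counts alone, the median log2 fold change was −0.21 for all tested genes and −0.28 for the tested members. After TMM scaling the summed level was 67094 to 70164 CPM with CSE and 71303 to 74187 CPM in the control, and the groups still did not overlap. By type, the scaled fibrillar sum was 55887 to 58196 CPM with CSE and 57798 to 60424 CPM in the control, which overlap. The FACIT sum was 2860.2 to 3183 against 4353 to 4409 CPM and that of the other types 6212 to 6613 against 7339 to 7498 CPM, both lower with CSE without overlap. The basement membrane sum was higher on this scale, at 2033 to 2191 against 1785 to 1870.1 CPM, again without overlap. No p is given for these sums, and among all tested genes 75.8% did not overlap between the groups after TMM scaling.

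**Figure D1:**
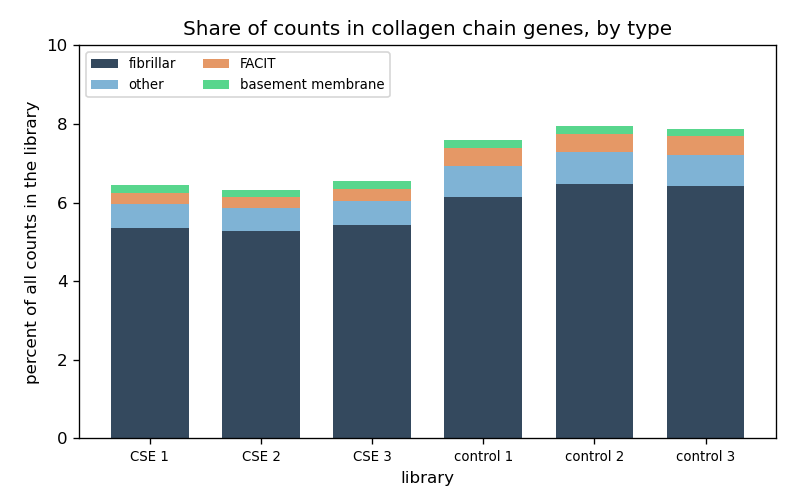
Percent of all counts in each library (vertical axis) that fell in collagen chain genes, for the 3 CSE and 3 control libraries, stacked by collagen type. The CSE bars end between 6.33% and 6.54% and the control bars between 7.59% and 7.94%, and the basement membrane segment is similar in all 6 libraries.

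Changes of single collagen genes were mostly small. Of the 29 tested, 6 rose, 13 fell and 10 did not pass in the comparison of CSE with control by edgeR's quasi-likelihood test, at a Benjamini-Hochberg adjusted p under 0.05 over all 13390 tested genes. Among all tested genes 73.9% passed, 36.3% higher and 37.5% lower, so the members' 65.5% is no higher than the background. By type, 60% of the tested fibrillar genes passed, 66.7% of basement membrane, 83.3% of FACIT and 60% of other types. These rest on 10, 3, 6 and 10 tested genes, and no type was tested against the background. The members' median log2 fold change was −0.09, beside −0.02 for all tested genes. The median size of the change, regardless of direction, was 0.19 on the log2 scale for collagen genes and 0.54 for all tested genes. At least 2-fold changes were called in 2 members upward and 1 downward, where the background shares are 10.7% and 14.4%. The CSE and control libraries did not overlap in 19 of the 29, beside 75.8% of all tested genes. The choice of scaling matters at this size of change: scaling by total counts alone, which moves the median of all genes by −0.19, gave 4 higher and 18 lower. Leaving out CSE replicate 2 left 6 higher and 8 lower.

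**Figure D2:**
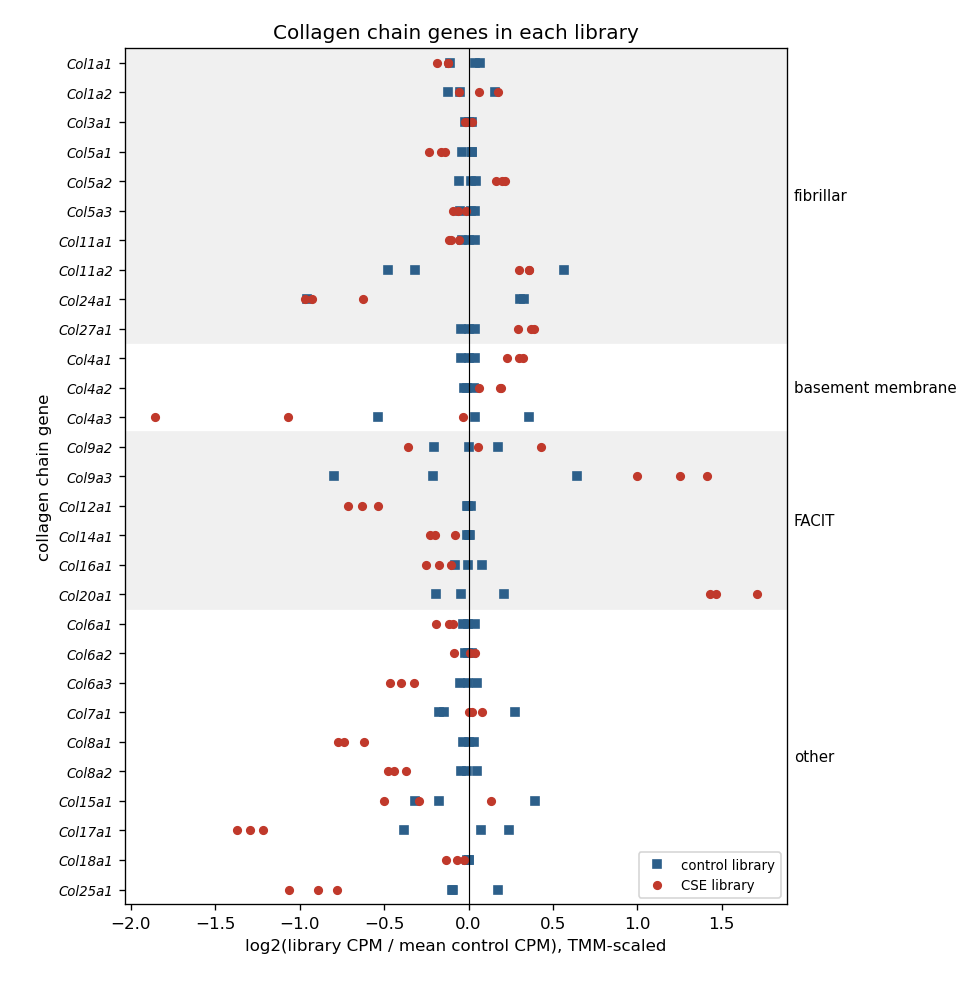
Level of each of the 29 tested collagen genes in each library, as the log2 ratio of its TMM-scaled CPM to the mean of the control libraries (horizontal axis), grouped by type, with circles for CSE and squares for control libraries. Col20a1 and Col9a3 lie to the right of their controls and Col17a1 to the left, while most other members lie within 1 log2 unit of them.

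Among the fibrillar collagens, which form the banded fibrils of bone, skin and tendon, 2 genes rose, 4 fell, 4 did not pass and 1 was not tested. Their median log2 fold change was −0.03. Scaling by total counts alone gave 1 higher and 6 lower, and with a library left out 1 (without CSE replicate 2), 2 (without CSE replicate 1, CSE replicate 3 or control replicate 1) or 3 genes were lower. Col1a1, the α1 chain of type I collagen, had more reads than any other gene in both groups. It was at 26481, 25326 and 26480.3 CPM in the CSE libraries and at 26640.0, 30157 and 29592 CPM in the control libraries. The groups did not overlap, but control replicate 1 lay just above the highest CSE library. Its change on the log2 scale was −0.14 ± 0.04 (SE, edgeR adjusted p = 0.0087, n = 3 per group), and without CSE replicate 2 it was −0.11 and missed the threshold (edgeR adjusted p = 0.065). Col3a1, the chain of the homotrimeric type III collagen of elastic tissues, was at 15051, 14982 and 15422 CPM with CSE and at 15396, 15017 and 15229 CPM in the control. These values overlapped, and the log2 fold change, −0.01 ± 0.04, missed the threshold (edgeR adjusted p = 0.89). Col3a1 was called lower with total counts alone (−0.19, edgeR adjusted p = 3.6e-05) and with upper-quartile scaling (−0.14, edgeR adjusted p = 0.0018).

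The chains of type V collagen, which nucleates type I fibrils and limits their width, went in opposite directions. Col5a2 rose, with 8464, 8275 and 8588 CPM with CSE against 7599.8, 7114 and 7447 CPM in the control (log2 fold change 0.19 ± 0.04, edgeR adjusted p = 2.7e-04). Col5a1 fell, with 3962, 3766 and 4015 CPM against 4304, 4498 and 4486 CPM, at −0.18 ± 0.04 (edgeR adjusted p = 7.5e-04). For both genes all CSE libraries lay on the same side of all control libraries. The rise of Col5a2 was not called with total counts alone (0.0045, edgeR adjusted p = 0.91) or upper-quartile scaling (0.06, edgeR adjusted p = 0.21), whereas Col5a1 was lower under each scaling that was run. Col5a3, an alternative type V chain, had 617 ± 16.4 CPM with CSE against 642 ± 21.0 (SD, n = 3) and did not pass, but was called lower with total counts alone (−0.24, edgeR adjusted p = 5.1e-05) and upper-quartile scaling (−0.19, edgeR adjusted p = 5.7e-04).

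The remaining fibrillar genes included Col27a1, a chain of cartilage and developing skeleton, which rose from 63.2, 59.8 and 61.7 CPM in the control libraries to 79.7, 80.6 and 75.5 CPM. Its log2 fold change was 0.35 ± 0.05 (edgeR adjusted p = 1.4e-05). Col11a1, which takes part in the thin fibrils of cartilage, was at 2311, 2328 and 2410.1 CPM with CSE against 2572, 2438 and 2512 CPM. The groups lay close but did not overlap, and the fall of −0.09 on the log2 scale was marginal (edgeR adjusted p = 0.045). That call was lost in 5 of the 6 fits that left out a library, with all log2 values between −0.11 and −0.08 in those fits. It was also lost with DESeq2 (adjusted p = 0.10), with DESeq2 size factors in edgeR (adjusted p = 0.12) and with the replicate block (edgeR adjusted p = 0.070). Its partner Col11a2 had 3.46, 3.33 and 3.46 CPM with CSE and 1.94, 4.01 and 2.17 CPM in the control and did not pass, but did without control replicate 2 (0.72, edgeR adjusted p = 0.011). Col24a1 fell, at 0.901 to 1.15 CPM against 0.908 to 2.21 CPM. Here the groups overlapped, because control replicate 3 lay among the CSE libraries, and the call did not hold with DESeq2 (adjusted p = 0.072), limma-voom (adjusted p = 0.093), or any library left out other than control replicate 3 (edgeR adjusted p = 0.058 to 0.17). Col2a1, the main cartilage collagen, had 32 counts over all libraries and was not tested.

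Col1a2, the α2 chain that joins α1 chains in the type I molecule, had few reads beside Col1a1. It was at 482, 523 and 567 CPM with CSE and at 559.7, 485 and 460.3 CPM in the control, which overlap, and the log2 fold change, 0.06 ± 0.07, missed the threshold (edgeR adjusted p = 0.40). Without control replicate 1 it was 0.14 and passed (edgeR adjusted p = 0.030). The Col1a1 count was 46.7 to 54.9 times the Col1a2 count in the CSE libraries and 47.6 to 64.3 times in the control libraries. Transcript lengths are not in the files, so this is a ratio of reads and not of transcripts. Whether the reads of Col1a2 were counted in full was not tested and cannot be told from the counts. Its level, and with it the ratio of Col1a1 to Col1a2, is therefore uncertain.

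In the basement membrane group, Col4a1 and Col4a2 rose, Col4a3 did not pass, and 3 genes were not tested. Col4a1 and Col4a2 encode the chains of the widespread type IV network, the sheet under epithelia and around vessels and muscle. Their annotated starts lie head to head on chromosome 16 with 76 bases between them, so both genes are read outward from the same short interval. The interval is shown because both members rose. It is chr16:84885521-84885596 of GRCr8 in RefSeq, on the strand of Col4a1, with capitals marking a match to the GC box, GGGCGG on either strand.

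Col4a1-Col4a2 interval: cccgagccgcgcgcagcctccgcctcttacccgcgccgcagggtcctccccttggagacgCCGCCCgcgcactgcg

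Col4a1 was at 1306, 1221 and 1282 CPM with CSE and at 1046, 1011 and 1073 CPM in the control (log2 fold change 0.28 ± 0.04, edgeR adjusted p = 1.3e-05). Col4a2 was at 884, 811 and 887 CPM with CSE and at 764, 773 and 795 CPM in the control, at 0.15 ± 0.05 (edgeR adjusted p = 0.0075). All CSE libraries lay above all control libraries for both genes. With total counts alone and with upper-quartile scaling Col4a1 stayed higher. Col4a2 passed with neither, at −0.04 with total counts alone (edgeR adjusted p = 0.40) and 0.01 with upper-quartile scaling (edgeR adjusted p = 0.84).

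The other type IV genes had few or no reads. Col4a3, whose chain belongs to the network of the kidney and lung, had 0.380, 0.654 and 1.34 CPM with CSE and 1.41, 0.949 and 1.77 CPM in the control. The groups overlapped and the log2 fold change, −0.80 ± 0.41, missed the threshold (edgeR adjusted p = 0.083). It passed without CSE replicate 3 (−1.42, edgeR adjusted p = 0.010) or control replicate 2 (−1.02, edgeR adjusted p = 0.046) and with total counts alone (−0.99, edgeR adjusted p = 0.034). Its head-to-head neighbour Col4a4 had 53 counts in all and was not tested. Col4a5 and Col4a6, on chromosome X, were listed at 0 in every library. Of 578 protein-coding genes with a symbol that RefSeq places on that chromosome, 567 were at 0 throughout, so nothing can be said of their expression.

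**Figure D3:**
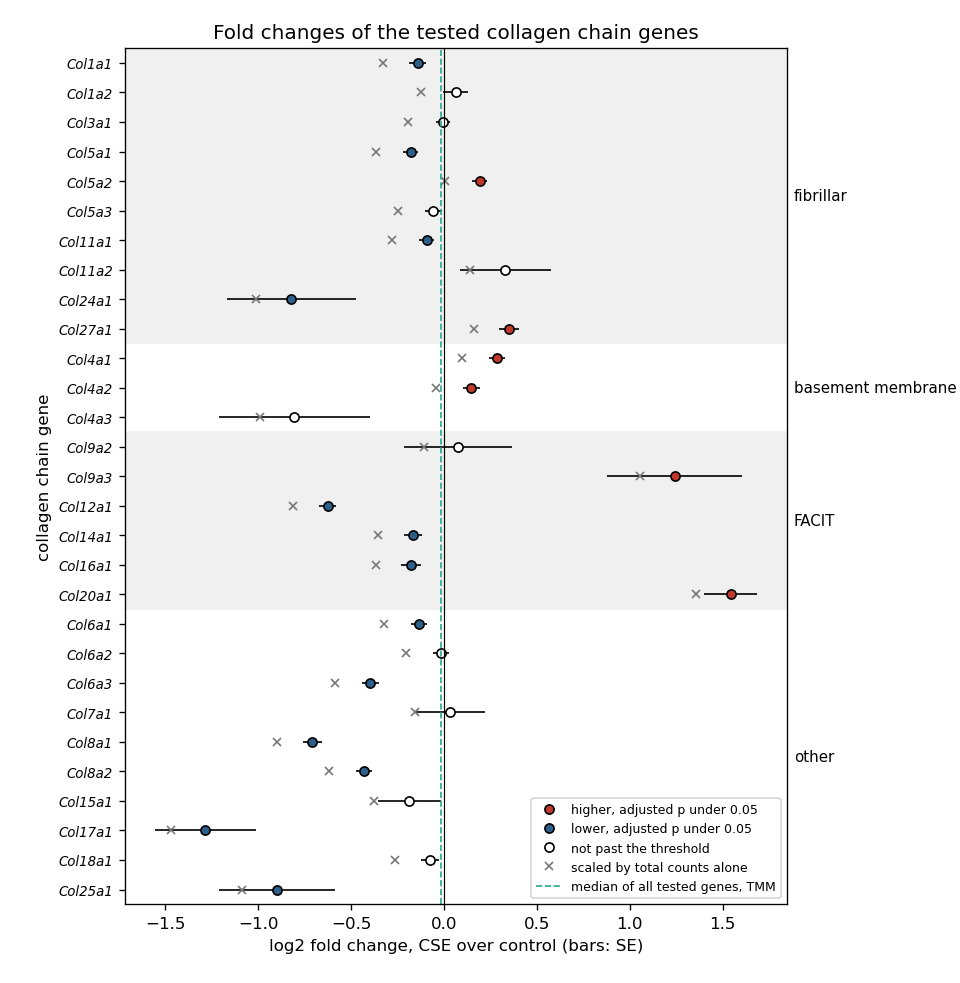
Log2 fold change of CSE over control (horizontal axis, bars show the SE) for the 29 tested collagen genes, filled where the adjusted p was under 0.05, with crosses for the value under scaling by total counts alone. The crosses lie to the left of the circles throughout, and Col12a1, Col6a3, Col8a1 and Col8a2 are lower under both scalings.

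FACIT collagens sit on the surface of fibrils and link them to other matrix parts. There were 2 that rose, 3 that fell, 1 that did not pass and 3 that were not tested, and the tested ones had a median of −0.04. Col12a1, whose chain coats type I fibrils in tendon, ligament and periosteum, fell furthest among the tested FACIT genes on the log2 scale. It had 2269.8, 2396 and 2568 CPM with CSE and 3699, 3709 and 3748 CPM in the control, a wide gap between tight groups. The log2 fold change was −0.62 ± 0.05 (edgeR adjusted p = 1.2e-09), or 1.54-fold lower. Col14a1, a related chain of tendon and skin, was at 389.6, 381 and 423 CPM with CSE against 448, 449 and 443 CPM, a fall of −0.17 on the log2 scale (edgeR adjusted p = 0.0040). Col16a1, found in cartilage and skin, was at 187, 169 and 178 CPM against 201, 190.2 and 212 CPM, and fell by 0.18 on the log2 scale (edgeR adjusted p = 0.0068, or 0.062 without CSE replicate 2). For both genes each CSE library lay below each control library, with a small gap for Col16a1.

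Col20a1 showed the largest rise among the 29 tested members. Its counts were 228, 235 and 204 with CSE and 77, 72 and 68 in the control. In CPM these are 10.8, 12.8 and 10.5 against 4.53, 3.80 and 3.43, with every CSE library more than 2-fold above every control library. The log2 fold change was 1.54 ± 0.14 (edgeR adjusted p = 2.9e-08), or 2.91-fold. Col9a3, a chain of the type IX collagen that decorates cartilage fibrils, rose 2.36-fold at a low level, from 1.00, 0.369 and 0.555 CPM to 1.28, 1.53 and 1.71 CPM (log2 1.24 ± 0.36, edgeR adjusted p = 0.0053). Of its partners, Col9a2 had 1.54 ± 0.414 CPM with CSE against 1.46 ± 0.192 and did not pass, and Col9a1 had 3 counts in all and was not tested. Col19a1 and Col22a1, with 5 and 19 counts over all libraries, were not tested either.

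None of the 18 genes of other types rose, 6 fell, 4 did not pass and 8 were not tested, and the tested ones had a median of −0.29. By edgeR none was higher at an unadjusted p under 0.05 either, and none was called higher by DESeq2 or limma-voom. Without the filter on low counts 1 of them, Col10a1, was called higher. Scaling by total counts alone gave none higher and 8 lower. Type VIII collagen forms the hexagonal lattices of the cornea and of vessel walls, and both of its chains fell. Col8a1 had 181, 186 and 201 CPM with CSE and 316, 309.7 and 302 CPM in the control (log2 fold change −0.71 ± 0.05, edgeR adjusted p = 6.5e-10). Col8a2 had 514, 477 and 489.8 CPM with CSE and 645, 689 and 660.2 CPM in the control, at −0.43 ± 0.05 (edgeR adjusted p = 1.5e-07). Neither gene's groups overlapped. Col10a1, the short-chain collagen of hypertrophic cartilage, had 4, 3 and 5 counts with CSE and none in the control. That is at least 3.80-fold higher when the control group as a whole is set to 3 counts, the approximate 95% upper limit for a count of 0, with the 12 CSE counts taken as observed. This limit covers counting error in the control only, and the gene did not pass the filter and was not tested.

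Type VI collagen forms beaded filaments around cells, each unit normally joining the chains encoded by Col6a1, Col6a2 and Col6a3. Col6a3 fell, with 1455, 1517 and 1601 CPM with CSE and 1933, 2079.8 and 2004 CPM in the control (log2 −0.40 ± 0.05, edgeR adjusted p = 4.6e-07). Col6a1 was at 1963, 1863 and 2001 CPM against 2129, 2078 and 2185 CPM, a smaller fall of −0.13 ± 0.04 (edgeR adjusted p = 0.0086, or 0.080 without CSE replicate 2). Col6a2 was at 2233, 2049 and 2186 CPM against 2175, 2146 and 2211 CPM, which overlap (log2 −0.01 ± 0.04, edgeR adjusted p = 0.78). With total counts alone (−0.20, edgeR adjusted p = 1.7e-04) and upper-quartile scaling (−0.15, edgeR adjusted p = 0.0041) Col6a2 was called lower too, so under those scalings all of Col6a1, Col6a2 and Col6a3 fell. Col6a4, Col6a5 and Col6a6 had 5, 2 and 0 counts in all.

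The transmembrane collagens Col17a1, a hemidesmosome component of epithelia, and Col25a1, a brain-enriched chain, fell at low levels. Col17a1 had 1.09, 1.04 and 0.982 CPM with CSE and 3.00, 1.95 and 2.67 CPM in the control, 2.44-fold lower (log2 −1.28 ± 0.27, edgeR adjusted p = 3.8e-04). Col25a1 had 0.759, 0.818 and 0.672 CPM against 1.59, 1.32 and 1.31 CPM (log2 −0.90 ± 0.31, edgeR adjusted p = 0.015, or 0.055 with DESeq2, 0.056 without CSE replicate 3 and 0.055 without control replicate 1). The groups did not overlap for either gene. Col13a1 and Col23a1, also transmembrane, had 3 and 2 counts in all and were not tested, nor were Col26a1 and Col28a1 with 7 and 1.

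Col15a1 and Col18a1 encode the multiplexins, proteoglycan collagens of the basement membrane zone, of which Col18a1 is the source of endostatin. Col18a1 was at 109.9, 105 and 113 CPM with CSE and at 116, 115 and 116 CPM in the control, so that the groups did not overlap, yet the log2 fold change, −0.08 ± 0.05, missed the threshold (edgeR adjusted p = 0.17). It passed with total counts alone (−0.26, edgeR adjusted p = 8.9e-05). Col15a1 had 11.4 ± 2.63 CPM with CSE against 13.1 ± 3.57 and did not pass. Col7a1, the anchoring fibril chain of skin, had 3.54 ± 0.0995 CPM with CSE against 3.46 ± 0.635 and did not pass (SD, n = 3).

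The start regions of 35 of the 44 members matched a RefSeq window on GRCr8 of 250 bases before to 50 after the annotated start, among them 22 of the 29 tested genes. Both type VIII genes, which fell, and Col20a1, which rose most, are shown for the bases just before their starts on their own strand. Capitals mark matches on either strand to the GC box (GGGCGG) or the CCAAT box (CCAAT).

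Col8a1, chr11:56246682-56246781: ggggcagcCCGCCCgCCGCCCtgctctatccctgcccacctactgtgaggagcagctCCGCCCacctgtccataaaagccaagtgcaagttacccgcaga

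Col8a2, chr5:143870649-143870768: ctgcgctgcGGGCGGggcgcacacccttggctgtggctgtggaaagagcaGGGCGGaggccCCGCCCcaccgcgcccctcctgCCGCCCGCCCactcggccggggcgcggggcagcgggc

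Col20a1, chr3:188479402-188479501: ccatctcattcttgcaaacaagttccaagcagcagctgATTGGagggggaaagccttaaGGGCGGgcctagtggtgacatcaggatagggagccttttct

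The Col8a1 stretch holds 3 GC boxes and the Col8a2 stretch 5, the last 2 of which share bases, and neither holds a CCAAT box. The Col20a1 stretch holds 1 of each. Over whole windows, a GC box was found in 15 of the 22 tested members (68.2%) and in 34.9% of all 27457 windows of the same length. It was in 4 of the 5 matched members that rose and 6 of the 9 that fell. The set of all windows, here and for the motifs below, includes genes that were not tested. The shares are therefore not set against genes of like expression. A CCAAT box was found in 7 members (31.8%, 37.7% of all windows) and the TATA box TATAAA in 2 (9.09%, 14.3% of all). For motifs of smoke-responsive factors, the antioxidant response element TGACNNNGC was in 3 members (13.6%, 12.2% of all windows), namely Col20a1, Col24a1 and Col7a1. The xenobiotic response element core GCGTG was in 8 (36.4%, 31.1% of all) and the AP-1 site TGANTCA in 1, Col6a1 (4.55%, 7.33% of all). The antioxidant response element match in Col20a1 is GCCTTGTCA on the gene's strand, just after the start. Each match is a string of letters and not a measured site.

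Because the ratio of 2 genes' counts within a library does not depend on library scaling, partner chains were also compared as 8 ratios. In 5 of them, each between chains of a shared type, the CSE and control libraries did not overlap. With 3 libraries against 3 the exact 2-sided permutation p cannot be below 0.1, and after Benjamini-Hochberg adjustment over the 8 ratios these 5 had p = 0.16, so none passed. The Col5a1 to Col5a2 count ratio was 0.468, 0.455 and 0.467 with CSE and 0.566, 0.632 and 0.602 in the control, a log2 difference of −0.37. Col8a1 to Col8a2 was 0.353, 0.390 and 0.411 against 0.490, 0.449 and 0.458 (log2 −0.28), and Col6a3 to Col6a1 was 0.741, 0.814 and 0.800 against 0.908, 1.00 and 0.917 (log2 −0.26). The 2 smallest differences among the 5 were those of the head-to-head pair and of Col6a1 with Col6a2. Col4a1 to Col4a2 was 1.48, 1.51 and 1.44 against 1.37, 1.31 and 1.35 (log2 0.14), and Col6a1 to Col6a2 was 0.879, 0.909 and 0.915 against 0.979, 0.969 and 0.988 (log2 −0.12).

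For Col3a1 to Col1a1 the ratio was 0.568, 0.592 and 0.582 with CSE and 0.578, 0.498 and 0.515 in the control, and control replicate 1 fell within the CSE range. Col1a1 to Col1a2 and Col11a1 to Col11a2 overlapped as well, with adjusted exact permutation p = 0.34 and 0.40.

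**Figure D4:**
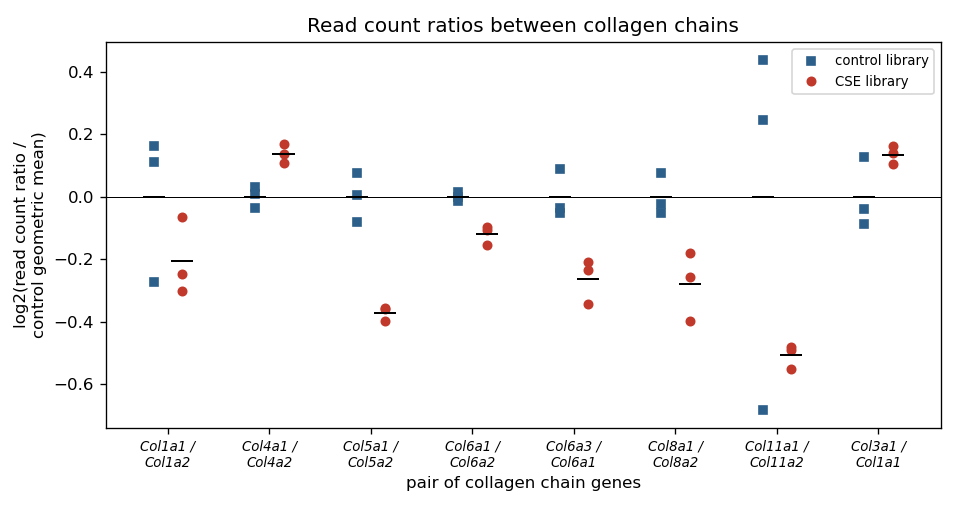
Read count ratio of 8 pairs of collagen chain genes in each library, as the log2 ratio to the geometric mean of the control libraries (vertical axis), with circles for CSE, squares for control libraries and short lines for group means. The CSE points of Col5a1 to Col5a2, Col6a1 to Col6a2, Col6a3 to Col6a1 and Col8a1 to Col8a2 lie below their controls and those of Col4a1 to Col4a2 above.

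As shares of all collagen reads, which also need no scaling, Col5a2 held 12.3% ± 0.0480 with CSE against 10.1% ± 0.525 (SD, n = 3), and Col12a1 held 3.51% ± 0.193 against 5.08% ± 0.0916. Col4a1 held 1.85% ± 0.0402 against 1.43% ± 0.0532. These groups did not overlap. Col1a1 held 37.7% to 38.4% with CSE and 37.4% to 40.8% in the control, which overlap. Shares of a fixed sum depend on one another, and no p is given for them.

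Genes that modify, fold, export, trim, bind and cut collagen were counted in the same fit, from lists chosen from general knowledge. Of all tested genes 73.9% passed, 36.3% higher and 37.5% lower. The share that passed was 57.1% for modification, 69.2% for folding and export, 83.3% for processing, 87.5% for receptors and 66.7% for cutting enzymes. These lists are small, and none was tested against the share of all genes. Of 14 tested genes of proline and lysine modification 6 rose, 2 fell and 6 missed the threshold (median 0.07), or 5 higher and 5 lower with total counts alone. P4ha1 and P4hb, a catalytic and the disulfide isomerase subunit of prolyl 4-hydroxylase, rose from 328 ± 6.96 to 530.1 ± 21.1 CPM (log2 0.69 ± 0.05, edgeR adjusted p = 2.6e-10) and from 1363 ± 13.1 to 2008 ± 56.3 CPM (0.56 ± 0.04, edgeR adjusted p = 1.1e-09). The lysyl hydroxylase gene Plod1 (0.42 ± 0.05) and the prolyl isomerase gene Ppib (0.37 ± 0.05) rose as well. The other catalytic subunit genes of prolyl 4-hydroxylase, named after their values were seen, did not rise with P4ha1. P4ha3 fell from 300 ± 10.6 to 260 ± 5.79 CPM (−0.21 ± 0.05, edgeR adjusted p = 5.5e-04), and P4ha2 did not pass (0.08 ± 0.05, edgeR adjusted p = 0.17).

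Of 13 tested genes of procollagen folding and export 4 rose, 5 fell and 4 missed the threshold (median −0.07), or 1 and 8 with total counts alone. Serpinh1, the gene of the collagen-specific chaperone HSP47, which is heat-inducible, rose from 3823 ± 77.7 to 5971 ± 189 CPM (log2 0.64 ± 0.04, edgeR adjusted p = 1.4e-10). Tmem38b, an endoplasmic reticulum potassium channel gene mutated in a form of brittle bone disease, fell from 14.6 ± 0.980 to 5.24 ± 1.05 CPM (−1.48 ± 0.14, edgeR adjusted p = 2.7e-08). Klhl12, the adaptor of the ubiquitin ligase that enlarges transport vesicles for procollagen, fell from 14.7 ± 0.972 to 5.64 ± 0.739 CPM (−1.38 ± 0.12, edgeR adjusted p = 1.6e-08). Fkbp14, a prolyl isomerase gene, was lower too (−0.66 ± 0.05).

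Outside the cell, of 12 tested genes of processing and crosslinking 3 rose, 7 fell and 2 missed the threshold (median −0.23), or 1 and 8 with total counts alone. The genes of the tolloid protease family diverged. Tll1 fell from 159.7 ± 3.29 to 86.2 ± 2.78 CPM (−0.89 ± 0.05, edgeR adjusted p = 2.8e-11). Bmp1, named after its values were seen, fell less, from 211 ± 1.91 to 186 ± 8.21 CPM (−0.18 ± 0.05, edgeR adjusted p = 0.0021). Tll2 had 214 counts with CSE and 2 in the control, a ratio of 101.5 with a 95% exact counting interval of 27.8 to 844, which covers counting error only (edgeR adjusted p = 3.8e-09). Both control counts came from control replicate 1, so the other control libraries were at 0. The fitted log2 value of 6.42 became 9.15 without that library, and neither is a bound on the change. The lysyl oxidase family genes Loxl4 (−0.80 ± 0.06) and Loxl1 (−0.29 ± 0.05) fell. Its other members, named after their values were seen, were mixed. Lox (−0.20 ± 0.04, edgeR adjusted p = 7.0e-04) and Loxl3 (−0.27 ± 0.06, edgeR adjusted p = 3.9e-04) also fell. Loxl2 rose, with 808, 793 and 779.8 CPM with CSE against 658, 625 and 690.2 CPM (0.27 ± 0.05, edgeR adjusted p = 3.6e-05). With total counts alone Tll2 was the 1 gene of this list called higher, so the rise of Loxl2 was not called there.

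Of 8 collagen receptor genes 2 rose, 5 fell and 1 missed the threshold (median −0.24), or 1 and 5 with total counts alone. The integrin genes went apart: Itga1 fell from 139.6 ± 3.45 to 55.4 ± 3.99 CPM (−1.34 ± 0.06, edgeR adjusted p = 1.0e-12) and Itga11 from 972 ± 39.3 to 687 ± 22.8 CPM (−0.50 ± 0.04, edgeR adjusted p = 2.0e-08), while Itga2 rose from 3.35 ± 0.297 to 10.4 ± 0.949 CPM (1.63 ± 0.14, edgeR adjusted p = 1.3e-08). Of the other integrin genes, named after their values were seen, Itgb1 rose and Itga10 did not pass. Itgb1 went from 2742 ± 120 to 3279 ± 23.3 CPM (0.26 ± 0.04, edgeR adjusted p = 2.3e-05). Mrc2, the endocytic collagen receptor gene, fell (−0.56 ± 0.05). Among 6 tested collagen-cutting enzymes 2 rose, 2 fell and 2 missed the threshold (median 0.01), or none and 3 with total counts alone. Mmp14, the membrane-bound collagenase gene, fell from 425 ± 7.37 to 228 ± 3.50 CPM (−0.90 ± 0.04, edgeR adjusted p = 4.2e-12) and Mmp13, collagenase 3, from 13.4 ± 3.07 to 7.06 ± 1.46 CPM (−0.92 ± 0.17, edgeR adjusted p = 9.0e-05). The gelatinase genes Mmp9 (0.31 ± 0.06) and Mmp2 (0.13 ± 0.04) rose with TMM scaling, and neither was called higher with total counts alone, where Mmp9 was at 0.12 (edgeR adjusted p = 0.071) and Mmp2 at −0.06. Without control replicate 2 Mmp2 also missed the threshold (edgeR adjusted p = 0.074).

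**Figure D5:**
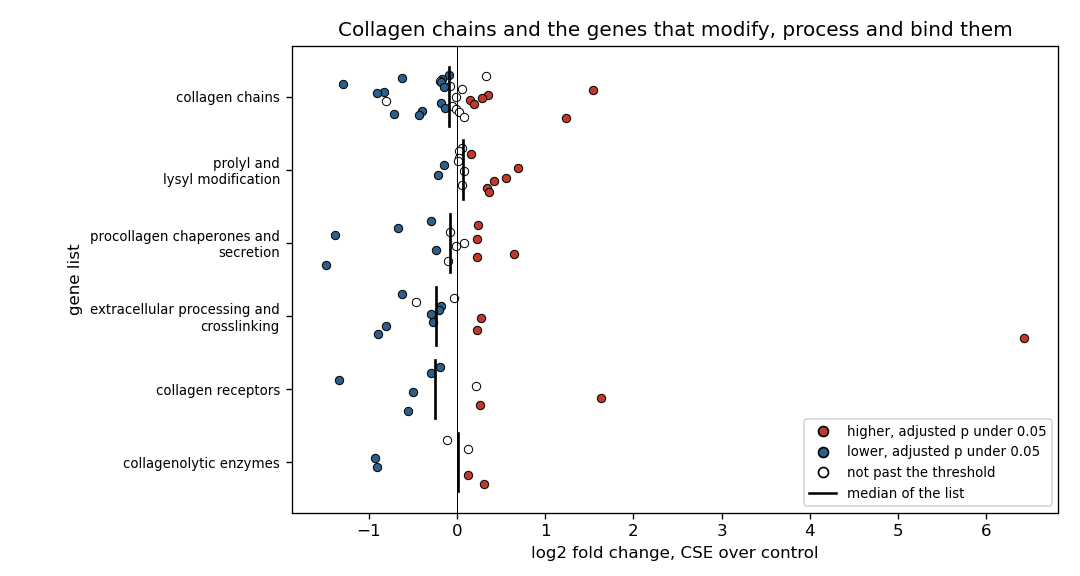
Log2 fold change of CSE over control (horizontal axis) for each tested collagen chain gene and each tested gene of 5 lists of collagen modification, export, processing, binding and cutting, filled where the adjusted p was under 0.05, with the median of each list as a vertical line. The point far to the right is Tll2, whose fitted value of 6.42 rests on 2 control counts, both in control replicate 1.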

How the data were processed

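The deposited file holds raw read counts per gene symbol in 6 columns, whole numbers that the authors did not normalize, judged from the values. HISAT2 2.0.4 and genome build Rnor_6.0 are named in the submitters' processing notes, with no role given. The names of the counting tool, annotation and strand setting were not given in the sources used here, so overlapping and antisense genes may share reads. Columns were assigned to samples by name. In R 4.3.3, edgeR 4.0.16 kept 13390 genes (filterByExpr), scaled libraries with TMM and compared CSE with control by its 2-sided quasi-likelihood test, with p-values adjusted after Benjamini and Hochberg across every kept gene and called under 0.05. SE is the log2 fold change divided by the square root of F. Fits were tested on simulated data in which few genes changed. That setting does not test the scaling of these data, where 73.9% of genes passed. Alternatives used DESeq2 1.42.0, limma-voom (limma 3.58.1), other scalings, filters and left-out libraries.

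Within groups the chi-square per degree of freedom between libraries was 3.39 to 6.09, so none agreed within sampling noise and each counted as 1 replicate. Members, lists and tests were chosen with earlier results of these data known. Values in every library are given for members called with at least a 2-fold change, the 3 members per type with the highest control level, and both chains of each ratio. Some others are given too, chosen after their values were seen. Of each pathway list up to 4 genes with the smallest adjusted p are named, and some others of the same families, chosen after their values were seen. Levels per coding length were not computed, because no protein or transcript sequences were used here. Listed genes absent under their current symbol were looked up by RefSeq synonyms. Col21a1, Mia2 and Pcolce2 were not analysed here.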

Additional observations from a re-analysis of the deposited data

How the results depend on the processing

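Fits were repeated with other scalings, filters and tools and with each library left out. Of 735 refitted log2 fold changes of 49 named genes, 672 kept direction and side of the threshold, 26 lost the call, 15 gained it and 22 changed sign, 3 of these in genes that had passed (Col4a2 and Mmp2). For other settings than scaling and fewer libraries the cause was not tested. With total counts alone the sign turned for Col1a2 (−0.13), Col4a2 (−0.041), Col7a1 (−0.16), Col9a2 (−0.11) and Mmp2 (−0.056), and with upper-quartile scaling for Col1a2 (−0.073), Col7a1 (−0.11), Col9a2 (−0.059) and Mmp2 (−0.0044). With DESeq2, and with its size factors in edgeR, Col3a1 was at 0.014 and Col6a2 at 0.0062. Values on both sides of 0 were seen with a library left out for Col15a1 (−0.37 to 0.045), Col1a2 (−0.0073 to 0.14), Col3a1 (−0.025 to 0.0098), Col6a2 (−0.035 to 0.029), Col7a1 (−0.062 to 0.19) and Col9a2 (−0.12 to 0.26).

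Counts of called genes moved as follows. Total counts alone and upper-quartile scaling each gave 1 fibrillar gene higher, and 1 higher and 1 lower in the basement membrane group. DESeq2 gave 2 fibrillar genes lower. With no filter on low counts 1 basement membrane gene was lower and 1 gene of other types higher. Total counts alone gave 5 modification genes lower, 1 export gene higher and 8 lower, 1 processing gene and 1 receptor gene higher and 0 collagen-cutting enzymes higher. Upper-quartile scaling gave 2 export genes higher and 8 lower and 1 collagen-cutting enzyme higher. With a library left out, 8 to 13 members were lower (8 without CSE replicate 2), 1 to 3 fibrillar genes lower, 0 to 1 basement membrane genes lower, 1 to 2 modification genes lower and 1 to 2 collagen-cutting enzymes higher. The log2 difference of the summed collagen level was −0.09 with TMM and −0.28 with total counts alone. The ratios kept their sign without any library.

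The replicate block, which takes the shared numbers of CSE and control libraries as pairs, gave 9756 genes called over all, against 9894 without it, and 6 members higher and 12 lower. Deviations of same-numbered libraries correlated at 0.02, −0.03 and 0.00, and libraries did not correlate best with their own number. No pairing was seen in these deviations. With 3 libraries per group they cannot tell whether same-numbered libraries share a culture, animal or batch. Levels per coding length were not run. Low depth limits Col9a3, Col17a1, Col24a1, Col25a1 and Col4a3, each with 202 counts or fewer over all libraries.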
